A study of Diospyros lotus with 24 samples.

Results

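Persimmon bud RNA was counted on the contigs of a de novo assembly. Of the 421126 contigs listed in the small RNA table, 3299 had no row in the matching mRNA count table as used here. They were found by name, as contigs listed in the small RNA table and missing from the mRNA table, and they made up 0.783% of all contigs and 0.312% of the assembled bases. The remaining 417827 contigs stood in both tables and serve here as the comparison. A contig is a stretch of sequence joined from overlapping reads, and the files pair none of these contigs with a gene name. Contig sequences were not used here, so whether the contigs come from annotated genes was not tested.

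The samples were mixed buds of the parents of the KK family, a female tree and a male tree of Diospyros lotus, cultivar Kunsenshi, whose progeny segregate for sex. Each parent gave 1 bud small RNA library, so no difference between mother and father has a replicate check and none was tested. Sampling fell on June 17 and July 4 in the year 2013, when male and female primordia begin to differentiate, and the labels tie neither date to a library. The bud mRNA table held 20 libraries, 9 sons, 9 daughters and both parents. In the small RNA data, sex cannot be told apart from the tree, its sampling or its library preparation.

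Small RNAs of plants are cut from longer RNA by Dicer-like enzymes and are loaded into Argonaute proteins. They guide the cleavage of matching mRNA, or they direct DNA methylation at repeats and transposons, whose own transcripts are often rare. A contig can therefore carry abundant small RNA and little mRNA. The series concerns a small RNA encoded on the male-specific Y chromosome.

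The mother's library held 19315399 counts and the father's 14168901. Intervals below are exact 95% limits. Those of library shares and of ratios cover the counting error of reads only, and the reads were not counted by molecular identifiers. Those of shares of contigs are binomial limits over the number of contigs, taken as if contigs were independent, and hold no counting error of reads. Counts on single contigs are set against those totals as CPM, the unit that brings every library to the same total, and densities are CPM per kb of contig length. The rule for reads that match several contigs is not given in the sources used here.

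The mRNA table ended at 1 count. Summed over the 20 libraries, the lowest contig in it had 1 count, 0 contigs had a sum of 0, and the median sum was 9. What the missing contigs would have counted is not recorded in either table, and no mRNA level is given for them.

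The missing contigs were short. Their median length was 220 bases, their 90th percentile 266 and their maximum 414, against a median of 311 and a maximum of 21792 among contigs in both tables. Of the 3299, 2756 (83.5%) were under 250 bases long, 432 were 250 or longer but under 300, 107 were 300 or longer but under 400, and 4 were 400 or longer. Their share of all contigs was 2.06% under 250 bases, 0.651% from 250 to under 300, 0.151% from 300 to under 400 and 0.00758% from 400 to under 600. None was found among the 97078 contigs of 600 bases or more. Because small RNA counts depend on length, each value below is set beside every contig of both tables in the same length bins (from 200, 250, 300 and 400 bases up to the next of these limits, the last ending below 600), weighted to the lengths of the missing contigs. These are called like-length contigs.

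Most of the missing contigs carried small RNA, and a typical one carried more than a like-length contig. At least 1 count over both parents was found on 91.5% of them (interval 90.5% to 92.4%), against 75.5% of like-length contigs. At least 10 counts were found on 54.0%, against 26.6%. The median was 12 counts per contig against 2, and the 25th and 75th percentiles were 3 and 41 against 1 and 11. Of the 3299, 2498 (75.7%, interval 74.2% to 77.2%) lay above the median of contigs in both tables in their own length bin, where 46.7% of like-length contigs did. Above the 90th percentile lay 20.9% against 9.94%, and above the 99th percentile 1.58% against 1.00%. In counts, the 90th percentile was 108 against 51 and the 99th percentile 726 against 554. Contigs of 1 assembly are not independent samples, so these shares describe the libraries and carry no test.

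**Figure D1:**
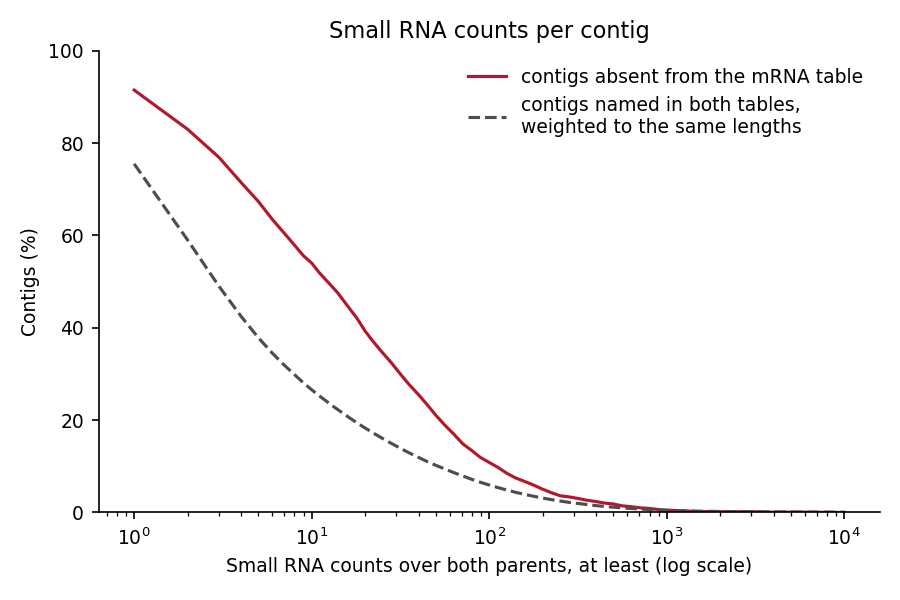
Percent of contigs (y axis) with at least a given small RNA count summed over both parents (x axis, log scale), for the 3299 contigs missing from the mRNA table (solid) and like-length contigs of both tables (dashed, weighted). The solid line lies above the dashed one at 1 count (91.5% against 75.5%) and at 10 counts (54.0% against 26.6%), and the lines come together at high counts.

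The gap in share and median was present in each length bin with more than 100 of the missing contigs. At 200 to under 250 bases, 91.0% of them had a count (interval 89.8% to 92.0%) and their median was 11 counts, against 73.6% and 2 in both tables. At 250 to under 300 bases these values were 93.98% (91.3% to 96.0%) and 16 counts, against 84.3% and 4. At 300 to under 400 bases they were 94.4% (88.2% to 97.9%) and 22 counts, against 88.6% and 5. That interval takes in the 88.6%. The mean there ran the other way, at 55.4 counts on the missing contigs against 80.8. In the shorter bins the missing contigs had the higher mean, 51.6 against 47.0 and 78.8 against 71.4. Longer contigs were more often counted in both sets, and the median of the missing contigs was above that of both tables in each of these bins. The 4 contigs of 400 bases or more each had a count, with a median of 18.

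**Figure D2:**
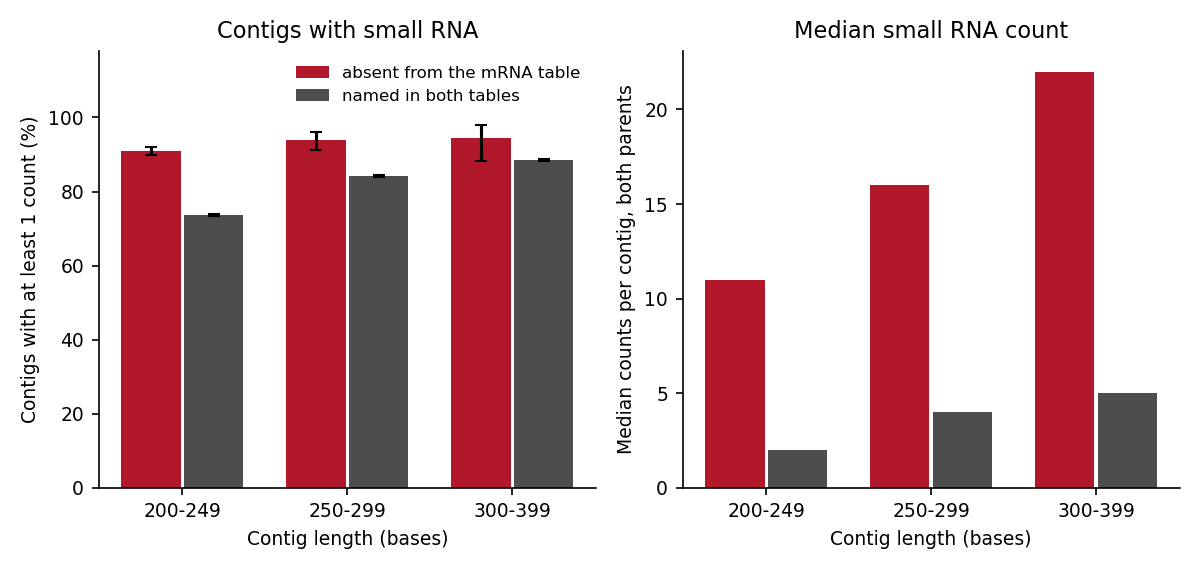
Left, percent of contigs with at least 1 small RNA count, with exact 95% binomial intervals as error bars. Right, median small RNA counts per contig over both parents, which carry no error bar. Bars are grouped by contig length in bases, for contigs missing from the mRNA table and contigs in both tables. The bars of the missing contigs stand at 91.0%, 93.98% and 94.4% on the left and at 11, 16 and 22 counts on the right.

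The longest of the missing contigs were not among the most counted. Contig308028DeNovoAssembly, 414 bases long, had 38 counts in the mother and 39 in the father. Contig416065DeNovoAssembly, also 414 bases long, had 11 and 8. Contig409868DeNovoAssembly, 404 bases long, had 9 and 8. Among the 52780 contigs of 400 to under 600 bases in both tables, 4956, 12460 and 13429, respectively, had more counts than these contigs.

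Each parent showed the same pattern. In the mother's library 84.6% of the missing contigs had a count, against 63.8% of like-length contigs, and in the father's 83.0% against 61.4%. The median density was 1.504 CPM per kb in the mother and 1.46 in the father, against 0.248 and 0.321 for like-length contigs. Both parents had a count on 2509 of the missing contigs, or 76.1%, where this held for 49.6% of like-length contigs. Counts in the mother alone were found on 281 contigs (8.52%), with at most 42 counts, against 14.1% of like-length contigs. Counts in the father alone were found on 228 contigs (6.91%), with at most 7 counts, against 11.7%. Neither parent had a count on 281 contigs (8.52%), against 24.5%. A count of 0 in a library allows an expected count of up to about 3 there, as an upper 95% limit alone. The largest count among missing contigs found in a single parent was thus 42, and the more abundant missing contigs were counted in both trees.

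Pooled over contigs, the small RNA was less different. The missing contigs held 110487 counts in the mother, or 0.572% of the library (interval 0.569% to 0.575%), and 71781 in the father, or 0.507% (0.503% to 0.510%). Both shares were below their share of contigs, 0.783%, and above their share of bases, 0.312%. The pooled density was 7.58 CPM per kb in the mother and 6.71 in the father, against 6.33 and 6.88 for like-length contigs. The missing contigs were therefore the higher in the mother and slightly the lower in the father, and this order depended on the comparison. Without the 1% of contigs of highest density in each bin the values were 5.39 and 4.75, against 2.53 and 2.34, and the missing contigs were the higher in both parents. Set beside contigs of the same block of contig numbers (10.1 and 11.3) or with exactly 1 mRNA count (7.68 and 6.95), all contigs kept, they were the lower in both parents. No order in pooled density therefore held in every comparison.

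Small RNA on the missing contigs was spread over a larger share of them than in like-length contigs as a whole. Shares held by the most counted contigs can depend on how many contigs a set holds, and the comparison sets were far larger. The part of set size in the values below was not tested. Of 182268 counts, 50.1% lay on the 120 most counted contigs, 3.64% of the set. Among contigs in both tables, 50.0% of the counts lay on 0.261% of the contigs of 200 to under 250 bases and on 0.229% of those of 250 to under 300. The 1% with most counts held 29.6% of the counts, against 63.2% in like-length contigs. That share was 39.8% in like-length contigs with exactly 1 mRNA count, 42.0% in those with at most 4 and 36.6% in those matched on block of contig numbers as well, so most of this difference was absent beside contigs of low mRNA count. By count class, 1087 of the 3299 contigs (32.9%) had 10 to 49 counts, where 16.4% of like-length contigs did, and 338 (10.2%) had 50 to 99, against 4.27%. A further 297 (9.003%) had at least 100 but under 500 counts, against 4.7997%, and 60 (1.82%) had 500 or more, against 1.141%. Those 60 held 38.3% of the counts of the set, against 64.6% on the same class of like-length contigs. The highest count in the set was 8457. Contigs in both tables reached 258876 at 200 to under 250 bases and 407696 at 250 to under 300. These maxima are over unlike numbers of contigs, 2756 and 432 missing contigs in those bins against 131188 and 65909. Only 66 of the 131188 had more than 8457 counts.

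The most counted contig of the set was Contig383922DeNovoAssembly, 221 bases long, with 5448 counts in the mother and 3009 in the father. These are densities of 1276 and 961 CPM per kb, and the contig alone held 4.64% of the counts of the set. Of 131188 contigs of 200 to under 250 bases in both tables, 66 had more. Contig357275DeNovoAssembly, 282 bases long, had 3852 counts in the mother and 3009 in the father, densities of 707 and 753 CPM per kb. It stood behind 57 of 65909 contigs of 250 to under 300 bases. These were also the densest contigs of the set, ahead of 3 others that ranked among the 5 most counted.

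Of those 3, Contig145716DeNovoAssembly, 206 bases long, had 1592 counts in the mother and 1734 in the father. Contig288738DeNovoAssembly, 241 bases long, had 1912 and 1323. Contig290996DeNovoAssembly, 236 bases long, had 1826 and 1375. Their mean densities over the parents were 497.1, 399.1 and 405.9 CPM per kb, in that order. The father over mother ratio of CPM was 1.48 (interval 1.39 to 1.59) for the first, 0.943 (0.879 to 1.01) for the second and 1.03 (0.956 to 1.10) for the third, so that the interval spans 1 for the last 2.

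The next 5 by count were at 1313 to 1781 counts over both parents. Contig360542DeNovoAssembly had 1210 counts in the mother and 571 in the father. Contig385414DeNovoAssembly had 1110 and 402, and Contig154696DeNovoAssembly had 1006 and 348. Contig379305DeNovoAssembly had 957 and 385. These 4 contigs of 219 to 272 bases were all higher in the mother, with ratios of father over mother between 0.472 and 0.643 and intervals below 1. Contig289085DeNovoAssembly, 367 bases long, had 760 and 553 counts, a ratio of 0.992 (0.887 to 1.11). With library totals, 5 of the 10 most counted contigs had an interval below 1, 2 an interval above 1 and 3 an interval that spans it. This split depended on the scaling. With the median scaling described below, the intervals of Contig290996DeNovoAssembly and Contig289085DeNovoAssembly lie above 1 as well. Together the 10 held 17.8% of the counts of the set.

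The missing contigs were set beside contigs in both tables by how much mRNA those had. Among contigs of 200 to under 250 bases, the 8988 with exactly 1 mRNA count over all 20 libraries had a median of 6 small RNA counts, and 86.2% had a count. The 58525 contigs with 2 mRNA counts had a median of 1 and a share of 65.1%. The missing contigs of that length, at 11 counts and 91.0%, stood above both. With 3 to 4 mRNA counts the median was 2 and the share 75.7%, with 5 to 19 counts 3 and 82.3%, with 20 to 99 counts 3 and 84.5%, and with 100 or more 3 and 85.2%. The medians thus fell steeply from no row over 1 to 2 mRNA counts and then rose slightly. These classes were alike in length but were not matched on contig number, with which small RNA also moved, as given below. The part of contig number in these steps was not tested. The mean ran differently: it was 51.6 small RNA counts on the missing contigs, 53.9 at 1 mRNA count, 20.2 at 2 and 375 at 100 or more.

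**Figure D3:**
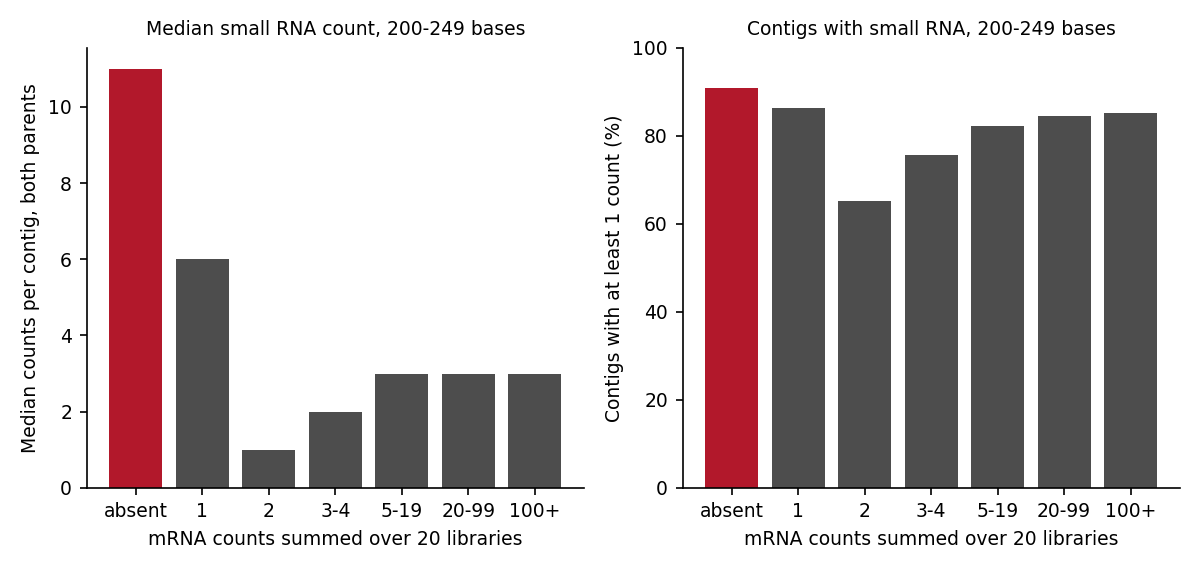
Contigs of 200 to under 250 bases by mRNA counts summed over 20 libraries (x axis), with contigs missing from the mRNA table at the left. The classes were not matched on contig number. The left panel gives the median small RNA counts per contig over both parents, which is 11 for the missing contigs and 1 to 6 in the classes of both tables, and the right panel the percent of contigs with a count, which is 91.0% against 65.1% to 86.2%.

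Contig numbers, which run from 1 to 421126 with 0 gaps, were also unevenly shared. Of the missing contigs, 2699 (81.8%) had a number above 220000, where 38.2% of contigs of 200 to under 250 bases in both tables did. In blocks of 20000 numbers, the missing contigs were 0.0922% to 0.543% of the contigs of 200 to under 250 bases in each of the first 5 blocks. In the 6 blocks after these they were 0% to 5.28% of 68 to 5810 such contigs per block. In the 11 blocks above 220000 they were 1.92% to 5.95%, except for 0.213% in the block from 300001, which held 470 contigs of that length. Small RNA moved with the number too. In the first 5 blocks the median of contigs of 200 to under 250 bases in both tables was 1 count, and above 220000 it was 3 to 8.

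Within blocks the median of the missing contigs was still mostly higher. In 17 of the 19 blocks with at least 10 of them at 200 to under 250 bases their median exceeded that of both tables, and in 2 blocks the medians were equal. With contigs of both tables matched on length bin and block, the comparison median rose from 2 to 5 counts and the share with a count from 75.5% to 85.6%, against 12 counts and 91.5%. The mean ran the other way, at 83.2 counts in the comparison matched on block and 55.2 on the missing contigs, and so did the pooled densities given above. With the comparison further limited to contigs of at most 4 mRNA counts the median and the share were 6 counts and 86.1%, and the 75th and 90th percentiles 27 and 93, against 41 and 108. There the mean was 49.6 counts, below the 55.2 of the missing contigs. The pooled densities in mother and father were 6.70 and 5.91 CPM per kb, below 7.58 and 6.71. What sets a contig's number in this assembly is not given in the sources used here, and its part in the difference that remained was not tested.

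**Figure D4:**
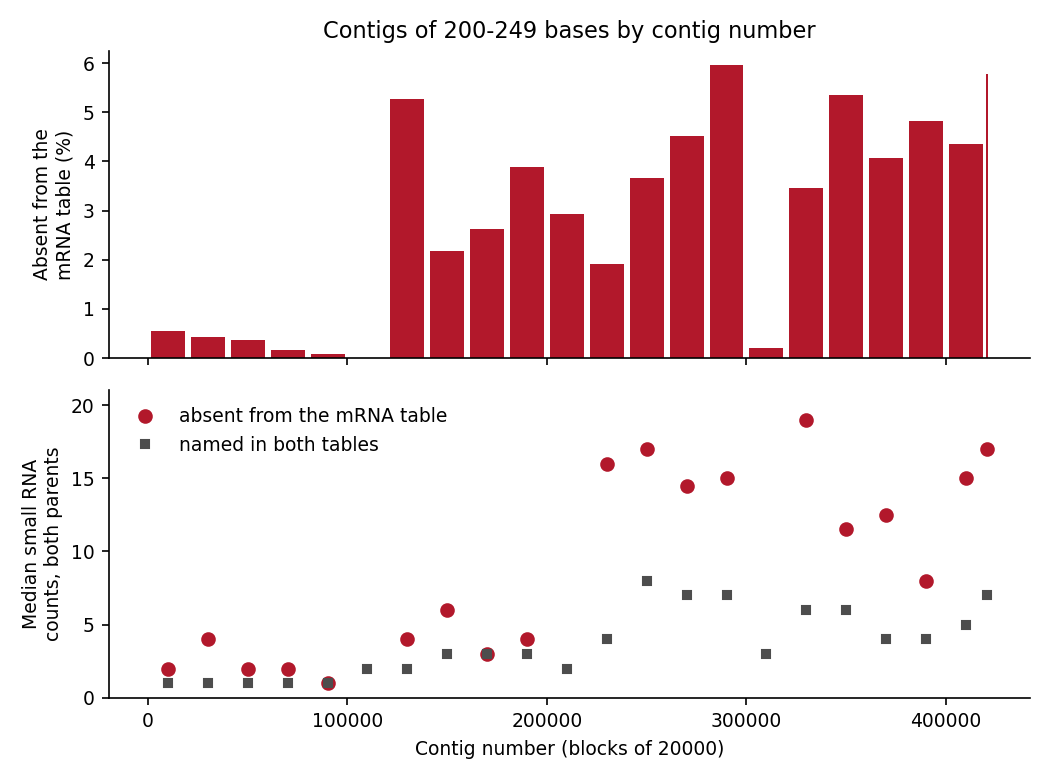
Contigs of 200 to under 250 bases in blocks of 20000 contig numbers (x axis). The upper panel gives the percent missing from the mRNA table, up to 5.95%. The lower panel gives the median small RNA counts over both parents for missing contigs (circles, blocks with at least 10) and contigs in both tables (squares), with the circles above the squares in 17 of 19 blocks.

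Missing contigs seldom had adjacent numbers. There were 72 runs of consecutive numbers, at most 3 long, which took in 146 contigs. A missing contig was followed by another in 2.24% of cases and a contig of both tables by a missing one in 0.772%. These shares were not matched on block of contig numbers, and missing contigs were 0.005% to 2.58% of the contigs of a block. The 146 contigs in runs had a median of 13 counts and the 3153 single ones 12, with pooled densities of 8.58 and 7.53 CPM per kb in the mother.

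Between the parents, small RNA on the missing contigs differed little, and the size of the difference depended on the scaling. Their pooled level was 5720 CPM in the mother and 5066 CPM in the father, a father over mother ratio of 0.886 with library totals (interval 0.877 to 0.894). The ratio was 0.913 with TMM scaling and 1.01, close to equal, with the median scaling described below. With library totals it was 0.893 without the most counted contig, 0.887 without the 10 most counted and 0.881 without the 1% of highest density. By length the ratio was 0.891 at 200 to under 250 bases, 0.858 at 250 to under 300 and 0.913 at 300 to under 400. Over all like-length contigs the ratio was 1.09, and it turned to 0.925 without their 1% of highest density. It was 0.897 over those with at most 4 mRNA counts, 0.905 over those with exactly 1, and 1.51 over those with at least 100. The last value rests on few contigs: the 1% with most counts held 86.3% of the counts there, and the median ratio was 1.01. With 20 to 99 mRNA counts the pooled ratio was 1.13 and the median 0.868. In these classes the pooled ratio thus lay above that of a typical contig.

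The ratio of a typical contig was below 1 in both sets. Over the 1782 missing contigs with at least 10 counts the median ratio was 0.881, with the 10th and 90th percentiles at 0.473 and 1.64, and 60.5% were below 1. Like-length contigs had a median of 0.909, and 56.3% of all contigs of both tables with at least 10 counts were below 1. These values depend on the scaling. Scaled by the median ratio over 36666 contigs of both tables with at least 100 counts, which is 0.881, the pooled ratio of the missing contigs became 1.01 and 50.0% of them were below 1, against 44.7% in both tables. With TMM scaling 58.0% of the missing contigs were below 1, against 53.2% in both tables. Whether the father has less small RNA on the missing contigs is thus not settled by these libraries.

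**Figure D5:**
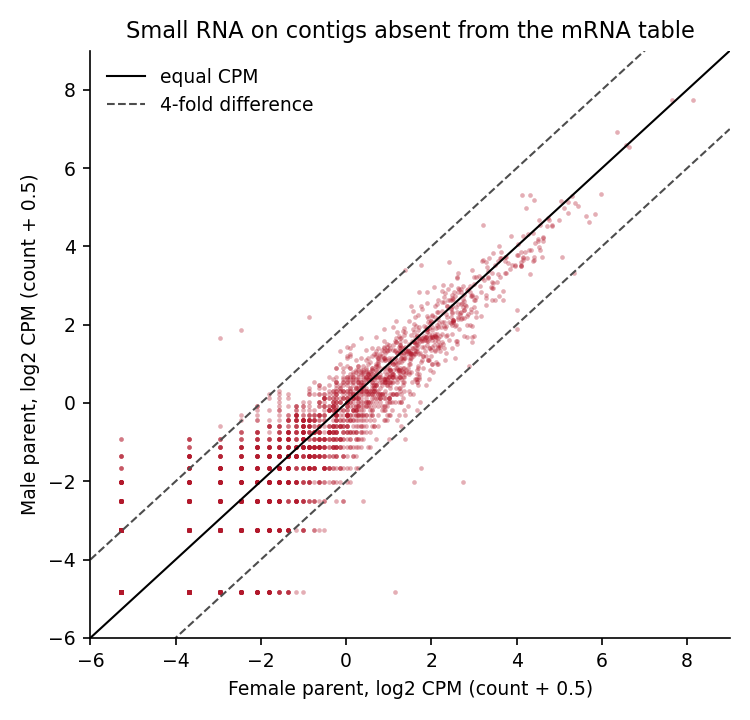
Small RNA on each of the 3299 contigs missing from the mRNA table, as log2 CPM of the count plus 0.5, in the female parent (x axis) and the male parent (y axis). The solid line marks equal CPM and the dashed lines a 4-fold difference. Among contigs with at least 10 counts, 12 lie at or above the upper dashed line and 30 at or below the lower one, computed without the added 0.5.

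The levels of the 3299 contigs in the parents ran together, with a Spearman correlation of 0.900 and a Pearson correlation of 0.894 on log2 counts plus 0.5. At 200 to under 250 bases and at least 10 counts the Spearman correlation was 0.849 over 1442 missing contigs and 0.832 over 33076 contigs of both tables. These correlations are across contigs of the same pair of libraries, which share the assembly and the contigs' lengths.

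Few of the missing contigs differed 4-fold between the parents. With at least 10 counts over both parents, 12 of 1782 (0.673%, interval 0.348% to 1.17%) had a father over mother ratio of at least 4, where 1.72% of all 169824 contigs with as many counts did. A ratio of at least 4 the other way, higher in the mother, was found for 30 (1.68%, 1.139% to 2.39%), where 2.07% of all contigs did. Contigs of both tables weighted to the same lengths and the same classes of small RNA count gave 1.73% for the father and 2.65% for the mother. With at least 50 counts the missing contigs gave 3 for the father (0.432%, 0.0891% to 1.26%) and 6 for the mother (0.863%, 0.317% to 1.87%) of 695, against 0.788% and 0.889% of all contigs. At 10 counts the interval for the father lay below the share of all contigs, and that for the mother spans it. Beside the contigs matched on length and count class, 1.73% and 2.65%, both intervals at 10 counts lay below. Such limits treat contigs as independent, which contigs of the same assembly and pair of libraries are not, so these positions carry no test. At 50 counts both intervals span the share of all contigs. At a ratio of 2 and at least 10 counts there were 102 (5.72%, 4.69% to 6.91%) for the father, against 9.27%, and 220 (12.3%, 10.9% to 13.96%) for the mother, against 10.8%. With the median scaling the 4-fold counts became 18 (1.01%) and 21 (1.18%) in place of 12 and 30, against 2.29% and 1.58% of contigs in both tables.

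The contigs of most counts among the 12 higher in the father began with Contig5159DeNovoAssembly, 203 bases long, with 50 counts in the mother and 150 in the father, a ratio of 4.09 (interval 2.95 to 5.75). Contig360574DeNovoAssembly, 212 bases long, had 10 and 64, a ratio of 8.72 (4.45 to 19.1). Contig413323DeNovoAssembly, 215 bases long, had 3 and 51, a ratio of 23.2 (7.50 to 116). Contig255542DeNovoAssembly, 245 bases long, had 2 and 44, a ratio of 30.0 (7.82 to 255). Contig373121DeNovoAssembly, 233 bases long, had 5 and 16, a ratio of 4.36 (1.53 to 15.2). All 5 thus had counts in the mother as well, and the largest ratios rest on 2 or 3 of them.

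On the mother's side, Contig237583DeNovoAssembly, 229 bases long, had 780 counts in the mother and 140 in the father, a mother over father ratio of 4.09 (interval 3.41 to 4.93). Contig270623DeNovoAssembly, 236 bases long, had 309 and 52, a ratio of 4.36 (3.24 to 5.97). Contig272721DeNovoAssembly, 215 bases long, had 128 and 3, a ratio of 31.3 (10.5 to 154). Contig154853DeNovoAssembly, 205 bases long, had 65 and 4, a ratio of 11.9 (4.44 to 45.1), and Contig267268DeNovoAssembly, 206 bases long, had 58 and 3, a ratio of 14.2 (4.62 to 70.8). The 5 contigs on the mother's side thus had 61 to 920 counts over both parents, and the 5 on the father's side 21 to 200. All these ratios use library totals. With TMM scaling the ratio of Contig237583DeNovoAssembly falls below 4. With the median scaling it and that of Contig270623DeNovoAssembly both do.

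Contigs of higher count more often had an interval that left out equal CPM, and the split between the sides depended on the scaling. With library totals, of the 357 missing contigs with at least 100 counts, 124 (34.7%) had an interval below a ratio of 1 and 39 (10.9%) an interval above it, against 32.5% and 14.7% of like-length contigs with as many counts. At 50 to 99 counts these were 61 (18.05%) and 19 (5.62%) of 338, against 15.0% and 8.11%. With the median scaling, 75 (21.01%) of the 357 lay below and 61 (17.1%) above, against 21.04% and 22.5% of like-length contigs, and 37 (10.9%) and 35 (10.4%) of the 338, against 9.16% and 12.5%. The 10th and 90th percentiles of the ratio at 100 counts or more were 0.548 and 1.33 on the missing contigs and 0.556 and 1.48 on like-length contigs, so the spread was similar.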

How the data were processed

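Raw read counts on contigs of a de novo assembly were deposited by the authors in a table of bud small RNA from both parents, beside contig length in bases, and in a table of bud mRNA from 20 trees. Per the labels' protocols, small RNA was concentrated on columns, amplified over 12 PCR cycles and read as 50-base single-end reads. BWA, R 3.0.1 and DESeq 1.14 are named in the submitters' processing notes. The sources used here do not give strand, read size limits or the counting rule. The 2 flower libraries were not used here.

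Contig names were compared between the tables. CPM used the sum of all contigs of a library. Shares have Clopper-Pearson limits and ratios exact conditional limits (Python 3.11.15, scipy 1.17.1); TMM factors came from edgeR 4.0.16. With 1 library per parent no test was made. Members, lists and rules were chosen with earlier results of these data known. Named contigs are the 10 most counted, up to 5 of most counts past a 4-fold ratio in each direction, the 5 densest with at least 10 counts and the 3 longest, 23 in all. The steps were tested on simulated data.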

Additional observations from a re-analysis of the deposited data

How the results depend on the processing

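Matching on contig number or mRNA count, the scaled shares below 1 and the ratios without the top 1% were alternatives added after seeing the data. With 1 library per parent there was no replicate to leave out. No paired analysis was possible because each group holds 1 library and no result comes from a test. At this depth, contigs with 0 in a library can have an expected count of up to about 3 there, as an upper 95% limit alone. Causes of the changes below were not tested beyond what each rule implies.

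The share with small RNA was 76.9% at 3 counts and 54.0% at 10 on the missing contigs, and 49.02% and 26.6% on like-length contigs. The latter share was 74.9% with finer length bins, 85.6% in the same block of contig numbers, 72.3% with at most 4 mRNA counts, 86.9% with exactly 1 and 86.1% with both block and at most 4. Their median of 2 counts became 5, 7 and 6 with the block, exactly 1 mRNA count, and block with at most 4. The density of the missing contigs in mother and father was 7.21 and 6.43 CPM per kb without the most counted contig, 6.25 and 5.54 without 10, and 5.39 and 4.75 without the top 1%. For like-length contigs it was 2.53 and 2.34 without the top 1%, 10.1 and 11.3 in the same block, 4.06 and 3.64 with at most 4 mRNA counts, and 7.68 and 6.95 with exactly 1. Finer bins gave 6.87 in the father. The share of all counts was 0.902% and 0.867% without the 1000 most counted contigs of the library.

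The pooled ratio of the missing contigs, 0.886, became 1.01 with the median scaling and was 0.913 with TMM. For like-length contigs, 1.09 became 1.23 and 1.12 with those scalings, 1.12 in the same block, and turned to 0.925 without the top 1%, 0.897 with at most 4 mRNA counts and 0.905 with exactly 1. The median ratio of the missing contigs was 0.852 at 50 counts and 1.00 with the median scaling. That of like-length contigs was 0.9501 at 1 count, 0.888 at 50, 1.03 with the median scaling (turned), 0.936 with TMM, 0.890 in the same block and 0.900 with exactly 1 mRNA count. The 12 contigs 4-fold higher in the father and 30 in the mother became 3 and 6 at 50 counts, 102 and 220 at a ratio of 2, 6 and 11 with the lower 95% limit at least 2, and 0 and 0 at 300 bases or more.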
